A study of Mus musculus with 2 samples.

Results

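Foxj1, Rfx1, Rfx2, Rfx3, Rfx4, Mcidas, Gmnc, Trp73 and Myb are 9 genes for transcriptional regulators of multiciliated cells, and their RNA was followed through the ependymal sub-groups, the cycling ependymal cells and the vascular cells of the mouse spinal cord. The genes were taken by name, 9 of the 24071 gene rows in the count tables, and each had at least 1 UMI (unique molecular identifier, a tag marking 1 captured RNA molecule) in both libraries. The libraries, one of CD133+ DNGR-1 traced cells and the other of CD133+ non-traced cells, came from spinal cords of adult C57BL/6j mice aged 10 to 12 weeks with the genotype Clec9acre/creR26LSLtdTomato/LSLtdTomato. All cells of both groups therefore carried Cre at both copies of Clec9a, the gene of DNGR-1, and a Rosa26 tdTomato reporter, also on both alleles, that Cre switches on for good. Tissue was perfused with PBS, dissociated and cleared of myelin, and live CD45- CD133+ cells were sorted into tdTomato-positive (traced) and tdTomato-negative (non-traced) tubes. The label reads past or present Clec9a promoter activity in a cell or its ancestors, so a non-traced cell can also be a cell in which recombination did not take place. Each group was 1 library, the number of mice behind it is not given in the sources used here, and no test between groups was possible.

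Multiciliated cells carry many motile cilia, which in ependyma move the cerebrospinal fluid. The study's microscopy found only a pair of cilia on most traced cells of the spinal cord central canal. In their textbook pathway Gmnc (GEMC1) and Mcidas (multicilin), relatives of the DNA replication inhibitor geminin, act with E2F4 or E2F5 and switch on Trp73, Myb, Foxj1 and the genes that multiply centrioles, among them Deup1 and Ccno. FOXJ1 and the RFX factors then hold on the genes of the ciliary axoneme and its motors, and the RFX factors bind a DNA sequence called the X-box. Gmnc, Mcidas and Myb are known to act early and for a short time while the cell forms, whereas Foxj1 and Rfx genes stay on in the mature cell.

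Promoter sequences were read for the 8 member genes with an entry in the RefSeq table (GRCm38.p6), which gave 11 windows of the bases around a start site, most of them upstream of it. The windows were searched on both strands for the X-box GTNNCCNNNGNNAC, the forkhead core TGTTTAC and the E2F site in the forms TTTCCCGC, TTTGGCGC and TTTCGCGC. Of the 11 windows 1 held an X-box (Rfx2), 1 held a forkhead core (Myb) and 0 held an E2F site, against 4.62%, 3.65% and 1.84% of all 32851 promoters. Among windows found for the list of 29 regulators described below, 2 of 25 held an X-box (Deup1 and Ccno), and among those of cilia genes 4 of 14 did. An E2F site was in 4 of the 25 regulator and 0 of the 14 cilia windows, and a forkhead core in 1 of each. X-boxes in the windows of the cilia genes Zmynd10 and Tekt4 are not shown. The member stretches and the X-boxes of the 2 centriole genes are shown, with those of Hydin and Spag6l, which encode parts of the axoneme. These stretches are on the strand of the gene with the matched letters in capitals. They lie at chr17:56830959-56830988 (Rfx2, minus strand), chr10:21160935-21160964 (Myb, minus), chr9:15627912-15627941 (Deup1, minus), chr13:112987575-112987604 (Ccno, plus), chr8:110266948-110266977 (Hydin, plus) and chr16:16829314-16829343 (Spag6l, minus).
Rfx2, X-box: ccgccatagagactGTAGCCGTGGAGACtg
Myb, forkhead core: gtttgatggcatcTGTTTACagagttacac
Deup1, X-box: gaggccgcGTCTCCATGGCAACccactggg
Ccno, X-box: gggctgcgGTTGCCACGGTGACgacagacg
Hydin, X-box: actctgcgGTTGCTGTGGCAACagatggta
Spag6l, X-box: tccggttgctgtcgGTTGCCCTGGAGACgc
A match describes the letters only.

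In the annotation of the same build, Foxj1 lies on chromosome 11 from 116330704 to 116335399 and Myb on chromosome 10 from 21124935 to 21160984. Mcidas (chromosome 13, 112993845 to 113000394) starts 3067 bases beyond the end of Ccno on the same strand. Trp73 shares 4875 bases with the antisense gene Trp73os, Myb 9281 with Gm26577, Rfx3 1497 with Gm20407 and Rfx1 454 with C330011M18Rik. Whether counting used strand is not given in the sources used here, so the counts of these 4 genes are less certain than those of the others.

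The non-traced library held 25411 cells (median 7218 UMIs) and the traced library 4825 (median 8566), and 42 barcodes occurred in both. Clusters were built without the 9 genes and named from marker lists. Ependymal-like cells, defined by genes such as Ccdc153, Tmem212 and Rsph1, numbered 1145 non-traced (4.51% of that library) and 4712 traced (97.7%), with all 10 ependymal markers detected in each. They fell into a main group (736 non-traced and 3532 traced cells), an Anxa8 and Pvalb group (22 and 875), a Ucma group (358 and 200), a cycling group (20 and 96) and a small group with astroglial genes (9 and 9), each called by its leading genes. Within the main group the libraries sat in different clusters: nearly all traced cells lay in 4 clusters, while 616 of the 736 non-traced cells lay in a cluster led by Ly6c1, Egfl7, Hbb-bs, Flt1, Rgs5 and other genes of vascular and red cells and 68 in one led by Sncg and Sntn. In the first of these, 10 of the 10 ependymal and 0 of the 10 endothelial markers were found in over 50% of cells. Endothelial-like cells numbered 20690 non-traced and 49 traced. The 10 endothelial markers summed to 335 CPM (the counts scaled to one common total of UMIs per group) in ependymal-like cells of the non-traced library and 25.2 CPM in those of the traced one, with 0 and 2 of the 10 at 0. At least 1 such UMI was found in 89.3% and 18.7% of those cells. The part of this difference in the values below was not tested, beyond the values given for cells with no such UMI.

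Foxj1 had the highest level of the 9 in ependymal-like cells of both libraries and Mcidas the lowest. The kit reads transcript ends, so that a level counts molecules and is not divided by gene length. Orders between genes also hold differences in capture. Intervals, given in square brackets throughout, are exact 95% Poisson or Clopper-Pearson intervals that cover counting error only, not differences between mice, sorts or libraries. Foxj1, the master regulator of motile cilia, stood at 508 CPM [493 to 523] among non-traced ependymal-like cells and 474 CPM [468 to 481] among traced ones. No other member came near this level.

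The RFX genes followed in an order that was the same in both libraries. Rfx3, whose product serves motile and nodal cilia, stood at 136 CPM [128 to 144] in the non-traced library and 140 CPM [137 to 144] in traced cells. Rfx4, a relative known from neural tube and glial cells, stood at 128 CPM [120 to 135] and 127 CPM [124 to 131]. The intervals of Rfx3 and Rfx4 overlapped in the non-traced library and not in the traced one. Rfx2, which works with FOXJ1 at cilia genes, stood at 56.4 CPM [51.5 to 61.7] in the non-traced library and 59.1 CPM [56.9 to 61.4] in traced cells. Rfx1, a broadly expressed relative, stood at 44.7 CPM [40.4 to 49.4] and 38.1 CPM [36.3 to 39.9].

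The early regulators spanned the widest range. Myb lay between Rfx4 and Rfx2, at 68.0 CPM [62.6 to 73.8] in the non-traced library and 98.5 CPM [95.6 to 101.4] in traced cells. Trp73, a p53 relative needed for multiciliated cells, was at 26.2 CPM [22.9 to 29.9] and 28.0 CPM [26.5 to 29.6]. Gmnc was scarce, with 23 UMIs in non-traced and 122 in traced cells, or 2.67 CPM [1.69 to 4.01] and 2.67 CPM [2.21 to 3.18]. Mcidas had 1 and 9 UMIs, or 0.116 CPM [0.00294 to 0.647] and 0.197 CPM [0.0900 to 0.373]. Apart from Rfx3 and Rfx4 in the non-traced library, no 2 neighbours in the order had overlapping intervals in either library.

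**Figure D1:**
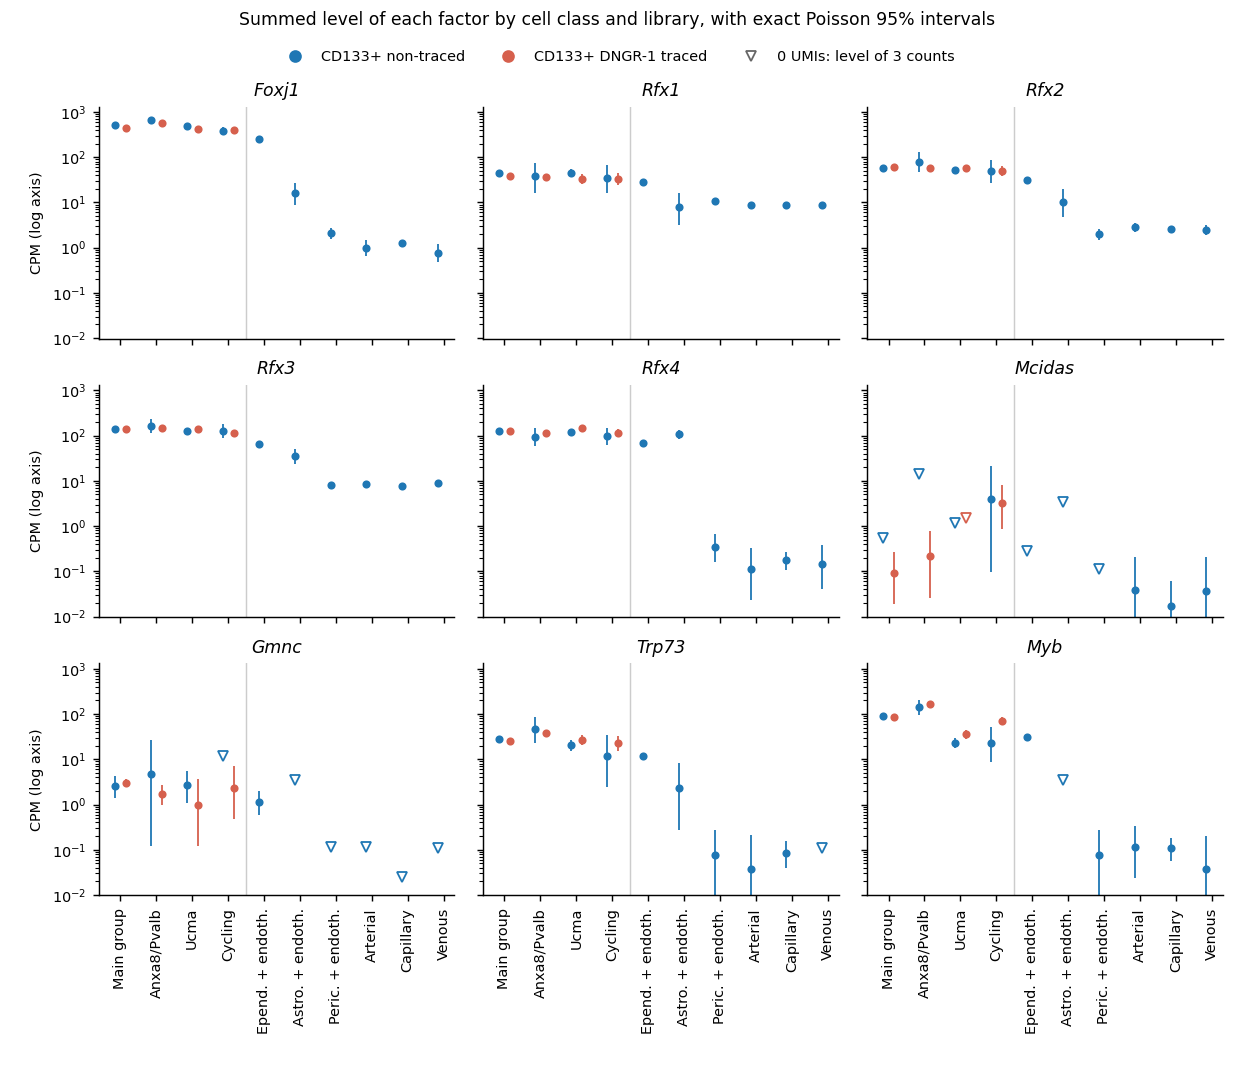
Level of each of the 9 genes (CPM, log axis, cut at its lower end) in 4 ependymal groups, left of the grey line, and in droplets with mixed markers and endothelial-like groups, right of it, by library, for groups of at least 20 and 50 cells. Bars are exact 95% Poisson intervals, and an open triangle marks the level of 3 counts where no UMI was found. Rfx1 and Rfx3 stay near 8 to 11 CPM in the pericyte and endothelial groups, where Foxj1 lies near 1 to 2 CPM and Gmnc has no UMI.

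Detection per cell was compared after thinning every cell to 1000 UMIs, which no cell fell short of. Foxj1 was detected in 461 of 1145 non-traced cells (40.3% [37.4 to 43.2]) and in 1773 of 4712 traced cells (37.6% [36.2 to 39.0]), and unthinned in 94.5% and 96.1%. In the non-traced endothelial-like cells, which should lack it, the thinned share was 0.111% [0.0705 to 0.167] and the unthinned share 0.904%, at a median of 6898.5 UMIs against 7069 and 8588.5 in the ependymal-like cells. Foxj1 was thus found in nearly every ependymal-like cell of either library at full depth. Rfx3 was detected after thinning in 12.6% [10.7 to 14.6] of non-traced and 12.8% [11.9 to 13.8] of traced cells, and Rfx4 in 12.0% [10.1 to 14.0] and 12.0% [11.1 to 13.0]. For Myb the shares were 5.76% [4.49 to 7.28] and 9.32% [8.50 to 10.2], with intervals that did not overlap. A traced ependymal-like cell had UMIs of a median of 4 of the 9 genes at full depth, a non-traced one 3 and an endothelial-like cell 0, and after thinning the first 2 medians were both 1.

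In thinned traced cells, a member was detected about as often with a Foxj1 UMI as without. Rfx3 was found in 240 of the 1773 cells with a Foxj1 UMI (13.5% [12.0 to 15.2]) and in 365 of the 2939 without (12.4% [11.2 to 13.7]). Myb was found in 9.25% [7.94 to 10.7] and 9.36% [8.33 to 10.5] of these cells. The intervals overlapped for all 8 other members, and at full depth 96.1% of the traced cells had a Foxj1 UMI.

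The question put to the libraries was whether traced ependymal cells differ from non-traced ones, and by the level of these genes the difference was small except for Myb. Taking genes that reached 5 CPM in 1 of the libraries or both, 0 of the 7 members tested were more than 2-fold higher in traced cells and 0 were more than 2-fold lower, against 0.777% and 2.15% of all 11324 genes. The median difference of the 7 was 0.05 on the log2(CPM + 1) scale, traced minus non-traced, beside 0.01 over all genes. The ratio of traced to non-traced level was 0.934 [0.904 to 0.9652] for Foxj1 and 0.852 [0.763 to 0.954] for Rfx1, both below 1 by their counting intervals. For Rfx2 it was 1.05 [0.951 to 1.16], for Rfx3 1.03 [0.970 to 1.10], for Rfx4 0.999 [0.936 to 1.07] and for Trp73 1.07 [0.927 to 1.24]. These 4 intervals include 1, as did that of Gmnc at 0.999 [0.636 to 1.63]. With 1 and 9 UMIs the Mcidas ratio was 1.69 [0.235 to 74.3], so that no difference could be detected at this depth.

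Myb had the largest difference of the 7, with a ratio of 1.45 [1.33 to 1.58]. MYB is best known from blood progenitors and in ciliated tissues acts as the cell leaves the cycle to build centrioles. The size of the difference varied with the sub-group. In the main group Myb stood at 89.3 CPM [81.6 to 97.6] in the non-traced library and 85.0 CPM [81.9 to 88.2] in traced cells, a ratio of 0.952 [0.864 to 1.05]. In the Anxa8 and Pvalb group it stood at 142 CPM [95.7 to 202] and 163 CPM [155 to 172]. In the Ucma group it stood at 23.0 CPM [17.5 to 29.7] and 35.4 CPM [27.6 to 44.7], a ratio of 1.54 [1.07 to 2.21]. In each library the level thus spread more widely between these sub-groups than it differed between the libraries within any of them.

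The shares of the sub-groups differed between the libraries. The Anxa8 and Pvalb group made up 1.92% [1.21 to 2.90] of non-traced and 18.6% [17.5 to 19.7] of traced ependymal-like cells, and the Ucma group 31.3% [28.6 to 34.0] and 4.24% [3.69 to 4.86]. When the non-traced sub-groups were weighted as in the traced library, an alternative added after the data were seen, Myb was 95.1 CPM in non-traced against 98.5 CPM in traced cells. Under the same weights Foxj1 was 537 against 474 CPM. In the first clustering, which was not split by library in the same way, Myb was 78.9 CPM in the non-traced library and 84.1 CPM in traced cells of the cluster that held 680 and 3493 of them. In the cluster rich in Anxa8 and Pvalb (99 and 930 cells) it was 152 and 161 CPM, ratio 1.06 [0.889 to 1.27]. In the cluster led by Ucma (388 and 218 cells) it was 25.6 and 36.2 CPM, ratio 1.42 [1.02 to 1.97]. In the smallest one, led by S100a9, Ngp and cell cycle genes (27 and 59 cells), it was 9.19 and 77 CPM, ratio 8.38 [2.75 to 41.6]. The non-traced value rests on 3 UMIs. Other members were also higher in traced cells there, with ratios of 1.91 for Foxj1, 2.64 for Rfx3, 2.18 for Rfx4 and 4.25 for Trp73. Those of Rfx1 and Rfx2 were 1.97 and 1.99, with intervals that included 1. The difference in this cluster was thus not particular to Myb.

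Because the cluster with most non-traced cells of the main group was led by genes of vascular cells, the members are also given for the largest cluster of the first clustering (680 and 3493 cells), whose leading genes were Pcp4, Dner and Pcsk2. There the ratio of traced to non-traced level was 0.9198 [0.881 to 0.9601] for Foxj1, 0.857 [0.745 to 0.989] for Rfx1 and 1.07 [0.9596 to 1.19] for Myb. For Rfx2, Rfx3, Rfx4 and Trp73 it was 1.08, 1.03, 0.966 and 0.915, with intervals that included 1. Without the non-traced cluster led by vascular genes, an alternative added after the data were seen that left 529 non-traced and 4709 traced cells, the difference over all ependymal-like cells was 0.86 for Myb, -0.14 for Foxj1 and -0.24 for Rfx1 on the log2(CPM + 1) scale. Of these 529 non-traced cells 358 were of the Ucma group, which had the lowest Myb of the larger groups. In this set 0 of the 7 members were past 2-fold. The share of all genes past 2-fold is not given for it, so nothing is read from that count.

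**Figure D2:**
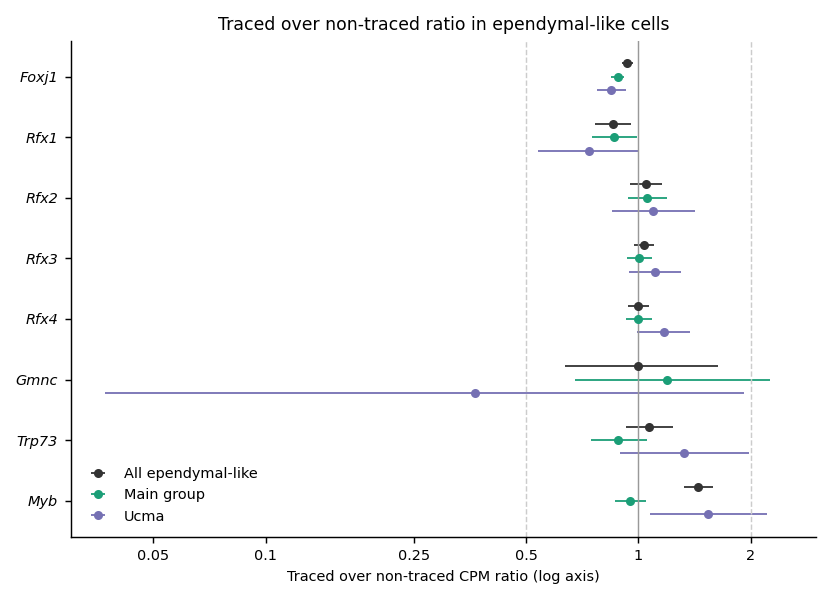
Ratio of traced to non-traced CPM (log axis, solid line at 1, broken lines at 0.5 and 2) for the members other than Mcidas over all ependymal-like cells, the main group and the Ucma group, with exact 95% intervals of the ratio as bars. Myb lies at 1.45 over all cells and at 0.952 within the main group, and the other members of at least 5 CPM lie between 0.852 and 1.07 over all cells.

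Limiting the comparison to cells with no endothelial marker UMI left 122 non-traced and 3832 traced cells. The difference then became 0.95 for Myb and 1.34 for Trp73 on the log2(CPM + 1) scale, in favour of traced cells. For Foxj1 it was 0.06. With the study's integration and whole clusters as classes (2111 non-traced cells), Myb stood 1.14 higher and Foxj1 0.47 higher in traced cells. The direction of the Foxj1 and Rfx1 differences therefore changed with the choice of non-traced cells. That of Myb over all ependymal-like cells did not, but within the main group the Myb ratio was 0.952 [0.864 to 1.05]. The mix of sub-groups also moved with this choice. Of the 122 non-traced cells with no endothelial marker UMI, 50 were of the Ucma group, beside 184 of the 3832 traced ones. The part of this mix in the Myb differences was not tested, beyond the weighted values. With sub-groups weighted as in the traced library, Myb was 95.1 CPM in non-traced against 98.5 CPM in traced cells.

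Between the Anxa8 and Pvalb group and the main group of the traced library, Myb and Trp73 stood furthest apart of the 7 members of at least 5 CPM. The Anxa8 and Pvalb group had 1.92 [1.80 to 2.04] times the Myb level of the main group. Trp73 stood at 38.6 CPM [34.7 to 42.8] there against 25.3 CPM [23.6 to 27.0], a ratio of 1.53 [1.35 to 1.73]. Foxj1 stood at 578 CPM [563 to 594] against 451 CPM [444 to 458], a ratio of 1.28 [1.24 to 1.32]. Gmnc, with 16 and 100 UMIs, went the other way with a ratio of 0.560 [0.309 to 0.955], and Rfx4 had 0.8998 [0.841 to 0.962]. The intervals of the ratios for Rfx1, Rfx2 and Rfx3 included 1. Of the 7 members, 0 were more than 2-fold higher and 0 more than 2-fold lower, against 1.18% and 0.571% of 11039 genes.

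The Ucma group, called by the gene of a matrix protein, had the lowest Myb of the larger groups in both libraries. Its Myb level was 0.417 [0.324 to 0.527] times that of the main group in the traced library and 0.258 [0.193 to 0.338] times in the non-traced library. Myb was the 1 member of 7 more than 2-fold lower in either library, where 2.61% (traced) and 2.95% (non-traced) of all genes tested were lower and 3.85% and 3.18% were higher. No member was more than 2-fold higher. Foxj1 stood close to the main group, with ratios of 0.937 [0.873 to 1.004] in traced and 0.975 [0.911 to 1.04] in non-traced cells. Trp73 had a ratio of 1.07 [0.794 to 1.40] in traced and 0.709 [0.508 to 0.976] in non-traced cells.

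**Figure D3:**
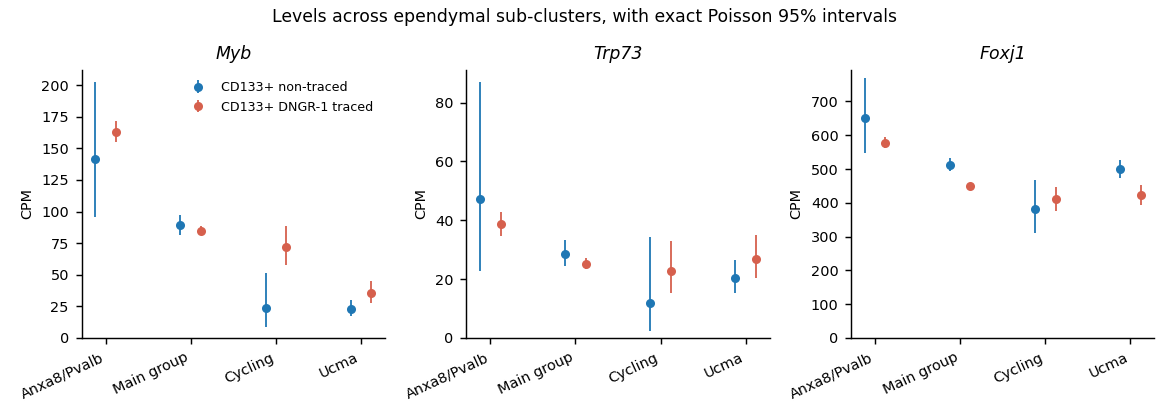
Level (CPM) of Myb, Trp73 and Foxj1 in 4 ependymal groups of each library, with exact 95% Poisson intervals as bars. Myb runs from 23.0 CPM in the non-traced Ucma group to 163 CPM in the traced Anxa8 and Pvalb group, and Foxj1 from 383 CPM in non-traced cycling cells to 652 CPM in the non-traced Anxa8 and Pvalb group.

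The 18 cells with astroglial genes had the highest Rfx4 of the ependymal groups, at 286 CPM [189 to 417] in the 9 non-traced and 204 CPM [138 to 291] in the 9 traced cells. In the 84 non-traced cells with astrocyte and endothelial markers it stood at 107 CPM [86.2 to 131], with 93 UMIs, against 16.1 CPM [8.80 to 27.0] for Foxj1, 35.6 CPM [24.2 to 50.6] for Rfx3 and 0 UMIs for Myb. Rfx1, Rfx2 and Trp73 had 7, 9 and 2 UMIs there, and Gmnc and Mcidas 0. Of Rfx4, Foxj1, Rfx3 and Myb, Rfx4 alone stood near its level in non-traced ependymal-like cells (128 CPM [120 to 135]), with overlapping intervals.

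In traced cycling ependymal cells the 7 members of at least 5 CPM were slightly lower than in other ependymal-like cells, and none of them was past 2-fold. Mcidas, below that level, is described after them. The 96 traced cycling cells were led by Mki67 and Top2a and had a median of 11203 UMIs against 8553 in other traced ependymal-like cells. Foxj1 stood at 410 CPM [376 to 447] in them against 476 CPM in the others, a ratio of 0.861 [0.788 to 0.939]. Rfx3 stood at 112 CPM [94.5 to 132] against 141 CPM, a ratio of 0.796 [0.670 to 0.941]. Myb stood at 71.9 CPM [57.9 to 88.3] against 99.2 CPM, a ratio of 0.725 [0.582 to 0.892]. For Rfx1, Rfx2, Rfx4 and Trp73 the ratios were 0.813 to 0.916 with intervals that included 1. All 7 members tested were below 0 on the log2 scale, with a median of -0.27 beside 0.06 over 11679 genes. Of these genes, 8.02% were more than 2-fold higher and 1.8% more than 2-fold lower, against 0 and 0 members.

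The 20 non-traced cycling cells gave values on few counts. Foxj1 stood at 383 CPM [311 to 467] and Myb at 23.4 CPM [8.61 to 51.0], from 98 and 6 UMIs. All 7 members of at least 5 CPM were again below 0 on the log2 scale, with a median of -0.39 beside 0.06 over 12391 genes. Of the 7, 2 were more than 2-fold lower and 0 higher, against 13.1% and 18.2% of these genes. The 2 were Myb, with a ratio of 0.338 [0.123 to 0.740] to the 69.4 CPM of the other cells, and Trp73, with 0.439 [0.0900 to 1.30] from 3 UMIs. These cells also held 688 CPM of endothelial and 293 CPM of leukocyte markers, the latter in 1 cell, and 1 of the 20 had no ependymal marker UMI. The part of these markers in the values was not tested. When cycling cells were taken in the traced library as all 524 with UMIs of at least 2 cycling markers, the Foxj1 difference turned to 0.06 and those of Rfx3 and Myb to 0.03 and 0.08 on the log2 scale. For these 3 genes the lower levels of the cycling cluster were not seen in this wider set. The cluster held only 96 traced cells, so most of the 524 lay outside it. At least 1 cycling marker UMI was found in 50.7% of the traced main group cells. The wider set therefore cannot decide whether the lower levels hold for cycling cells.

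**Figure D4:**
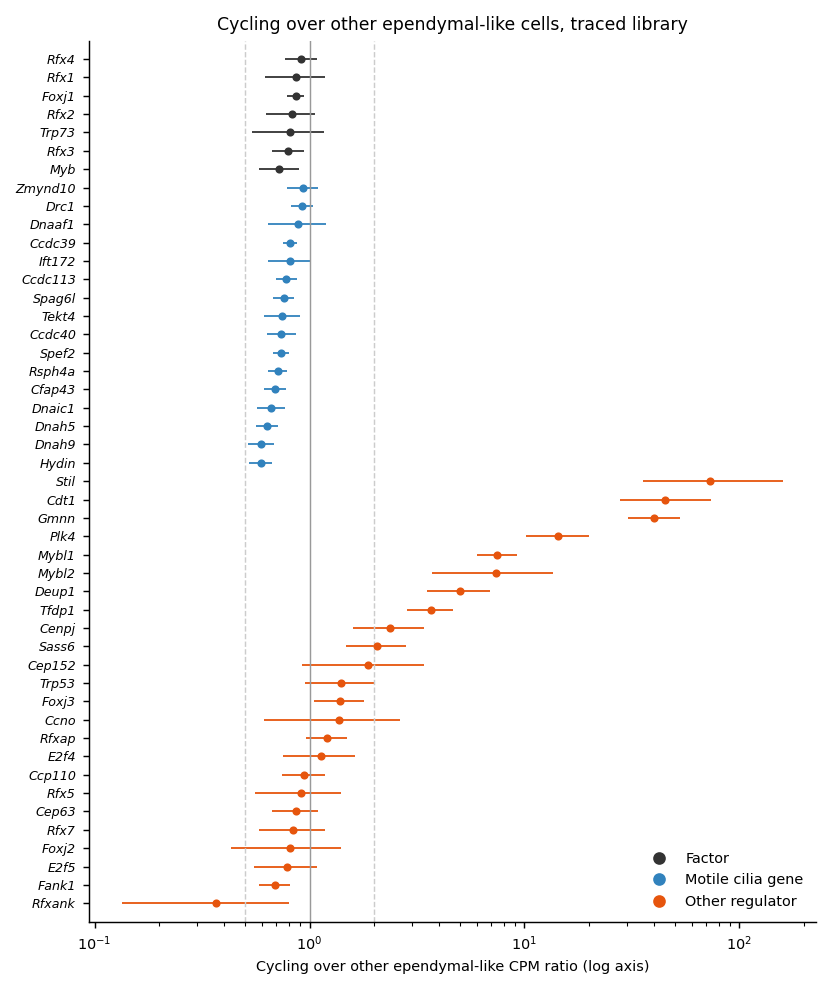
Ratio of CPM in cycling to CPM in other ependymal-like cells of the traced library (log axis, solid line at 1, broken lines at 0.5 and 2), with exact 95% intervals as bars, for the members, the cilia genes and the other regulators of at least 5 CPM. The 7 members lie between 0.725 and 0.916, while Gmnn lies at 40.0.

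Mcidas had 15 UMIs in 14 of all 30236 cells, with 5 of the UMIs in the small cycling group. Of the 116 cycling cells of both libraries 4 had a Mcidas UMI, of the 5741 other ependymal-like cells 5 did, of the 20739 endothelial-like cells 5 and of the 3640 remaining cells 0. All 4 cycling cells with Mcidas also had UMIs of Ccno, Plk4, Mki67, Top2a and Foxj1, read at full depth. Mki67 and Top2a are among the markers that named the cycling group, so their presence describes it only. Of the 5 other ependymal-like cells 1 had Ccno and 0 had both Mki67 and Top2a, and of the 5 endothelial-like cells 0 had Ccno. The 4 cycling cells had a median of 21692 UMIs against 11094 in all cycling cells, and 1 of them, from the non-traced library, also had 32 UMIs of the endothelial gene Cldn5. In the traced library alone the ratio of cycling to other cells was 28.1 [5.58 to 131], from 4 against 5 UMIs.

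Ccno, the neighbour of Mcidas on chromosome 13 that encodes a cyclin needed for centriole growth, was found in 11 of the 116 cycling cells (9.48%), 262 of the 5741 other ependymal-like cells (4.56%) and 25 of the 20739 endothelial-like cells (0.121%). Its level was 7.11 CPM in traced cycling against 5.22 CPM in other traced ependymal-like cells, a ratio of 1.36 [0.616 to 2.63]. Gmnc had 3 UMIs in traced cycling cells and 0 in non-traced ones, which at these depths allows no statement on a change.

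Other genes of the pathway were fixed as a list of 29 regulators, of which 27 had rows. In the cycling comparison of the traced library, 24 of them reached 5 CPM, 10 were more than 2-fold higher and 1 was more than 2-fold lower, beside 8.02% and 1.8% of all genes. Gmnn, which encodes geminin and is high in S and G2 phase, stood at 91.6 CPM against 2.29 CPM, a ratio of 40.0 [30.4 to 52.7]. Cdt1, its replication partner, had a ratio of 45.0 [27.7 to 73.9]. Stil and Plk4, which start new centrioles, had ratios of 73.2 [35.4 to 160] and 14.3 [10.1 to 19.9]. Deup1, the scaffold of the ring on which multiciliated cells build centrioles, stood at 33.2 CPM against 6.65 CPM, a ratio of 4.99 [3.52 to 6.91]. Mybl1 and Mybl2, relatives of Myb, had ratios of 7.47 [5.99 to 9.24] and 7.37 [3.72 to 13.5], in contrast to 0.725 for Myb. The partners E2f4 (1.13 [0.751 to 1.63]) and E2f5 (0.784 [0.550 to 1.09]) had intervals that included 1. Rfxank was the gene more than 2-fold lower, at 0.366 [0.134 to 0.8005]. The cluster was found from the cell cycle genes of the same cells, so these values describe it.

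The cilia genes, 16 genes known to depend on FOXJ1 or RFX factors, were all below 0 in the same comparison. None was past 2-fold, and their median was -0.42. Hydin, Dnah9 and Dnah5 were lowest at -0.75, -0.74 and -0.65, and Zmynd10, Drc1 and Dnaaf1 were nearest 0 at -0.10, -0.11 and -0.17. In the cycling comparison of the non-traced library all 16 were also below 0, with a median of -0.72. There 5 of them were more than 2-fold lower, beside 13.1% of all genes. Between the libraries, 0 of the 16 cilia genes and 0 of 20 regulators were past 2-fold in either direction. Their medians were 0.47 and 0.09, and 14 of the 16 cilia genes were above 0. Over all 11324 genes the median was 0.01, with 0.777% more than 2-fold higher in traced cells and 2.15% more than 2-fold lower. With the study's integration and whole clusters as classes, 10 of the 16 were more than 2-fold higher in traced cells. The share of all genes past 2-fold is not given for that setting, so nothing is read from this count. In the main comparison Ccdc39 had the largest difference of the 16, at 0.79, followed by Spef2 and Cfap43, and Tekt4 the lowest at -0.20. Spef2, which encodes a protein of the axoneme's central pair, stood at 415 CPM in the non-traced library and 645 CPM in traced cells. Foxj1 itself had a difference of -0.10. Of the regulators, Gmnn and Ccno were lower in traced cells, with ratios of 0.570 [0.435 to 0.755] and 0.6301 [0.482 to 0.832], and Foxj2 followed at -0.56 on the log2 scale. Sass6 and Ccp110, both centriole genes, and Rfx5 were the highest regulators, at 0.69, 0.58 and 0.46. Deup1 had a ratio of 0.979 [0.749 to 1.30].

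In endothelial-like cells Foxj1, Rfx4, Trp73 and Myb stood at 1.13 CPM or less, and Rfx2, Rfx3 and Rfx1 at 2.68 CPM or more. The comparison was made within the non-traced library, between 1145 ependymal-like and 20690 endothelial-like cells. In the endothelial-like cells Foxj1 stood at 1.13 CPM [0.976 to 1.29], Rfx4 at 0.166 CPM [0.112 to 0.236], Trp73 at 0.0662 CPM [0.0342 to 0.116] and Myb at 0.0993 CPM [0.0589 to 0.157]. Gmnc had 0 UMIs, and its ependymal level was 161 times the level that 3 counts would give there. The lower limit of the exact interval of its ratio was 121. Mcidas had 5 UMIs. Rfx1 stood at 8.73 CPM [8.31 to 9.18], Rfx3 at 8.10 CPM [7.69 to 8.52] and Rfx2 at 2.68 CPM [2.45 to 2.93]. All 7 members tested were more than 2-fold higher in ependymal-like cells and 0 were more than 2-fold lower, against 29.1% and 18.8% of all 12138 genes. The ratio was 451 [392 to 522] for Foxj1, 771 [537 to 1148] for Rfx4, 685 [430 to 1164] for Myb and 396 [222 to 778] for Trp73, but 21.04 [18.5 to 23.9] for Rfx2, 16.8 [15.5 to 18.1] for Rfx3 and 5.12 [4.57 to 5.72] for Rfx1.

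Ependymal transcripts free in the suspension can give UMIs in any droplet, so these levels were set against those of the 10 ependymal markers, which vascular cells should lack. The markers stood in endothelial-like cells at 0.0804% to 0.702% of their ependymal-like level (median 0.123%). Foxj1 stood at 0.222% [0.192 to 0.255], Rfx4 at 0.130% [0.0871 to 0.186], Trp73 at 0.252% [0.128 to 0.450] and Myb at 0.146% [0.0859 to 0.233], all within the range of the markers. The upper end of that range was set by Kif9 at 0.702% and Enkur at 0.5945%, with Rarres2 next at 0.201%, below Foxj1 and Trp73. Whether the levels of these 4 members in endothelial-like cells are background or expression was not tested. Rfx1 stood at 19.5% [17.5 to 21.9], Rfx3 at 5.97% [5.52 to 6.45] and Rfx2 at 4.75% [4.18 to 5.40], beyond the range of the markers. In the 702 non-traced droplets with both ependymal and endothelial markers, the 8 members other than Mcidas stood at 42.9% to 63.3% of the ependymal-like level and the markers at 38.9% to 50.7%.

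**Figure D5:**
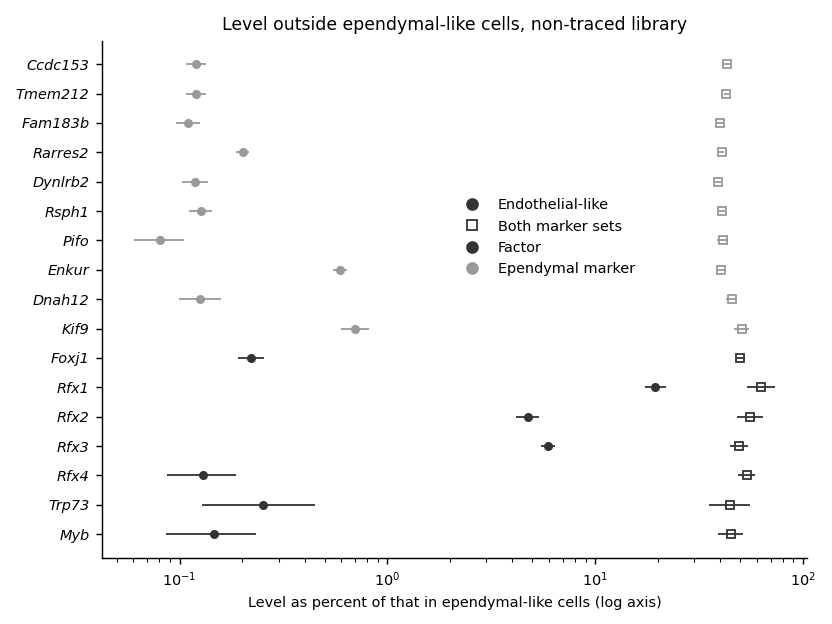
Level in endothelial-like cells (circles) and in droplets with both marker sets (squares) as a percentage of that in ependymal-like cells of the non-traced library (log axis), for 7 members in black and the 10 ependymal markers in grey, with exact 95% intervals as bars. Among the circles Foxj1, Rfx4, Trp73 and Myb lie with the markers, which reach 0.702%, and Rfx2, Rfx3 and Rfx1 lie between 4.75% and 19.5%.

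Rfx1 and Rfx3 varied little along the vascular tree. Over the arterial, capillary, venous and interferon-responding endothelial-like groups Rfx1 ran from 8.65 to 9.92 CPM and Rfx3 from 7.80 to 9.02 CPM. The intervals overlapped throughout, down to the extremes of Rfx3 in the capillary [7.31 to 8.32] and venous [7.92 to 10.2] groups. In the 2352 droplets with pericyte and endothelial markers Rfx1 stood at 10.5 CPM [9.30 to 11.8] and Rfx3 at 8.29 CPM [7.22 to 9.47], and in the 357 with smooth muscle and endothelial markers at 13.1 CPM [10.1 to 16.7] and 10.7 CPM [7.996 to 14.0]. The 49 traced endothelial-like cells had 2 UMIs of Foxj1, 2 of Rfx1 and 1 of Rfx3, which is too few to set beside these levels.

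Of the other regulators in the same comparison, 6 of 20 were more than 2-fold higher in ependymal-like cells and 2 more than 2-fold lower, shares near the 29.1% and below the 18.8% of all genes, from which nothing is read. Fank1, known from germ cells and ciliated cells, had the largest difference, 130 CPM against 0.143 CPM, followed by Ccno and Mybl1. Trp53, Gmnn and E2f4 were the lowest, with ratios of 0.315 [0.267 to 0.370], 0.308 [0.241 to 0.389] and 0.493 [0.416 to 0.580]. E2f5 had a ratio of 0.960 [0.846 to 1.09] and Deup1 of 3.75 [2.83 to 4.89]. Of the 16 cilia genes 15 were more than 2-fold higher, with a median of 7.23 beside 0.13 over all genes. Spef2, Ccdc113 and Rsph4a were highest, at 8.12, 7.79 and 7.75, and Dnaaf1 and Cfap43 stood at 4.76 and 4.87. Ift172, a subunit of the intraflagellar transport that primary cilia also need, was the exception at 0.53.

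Genes whose level ran most like that of a member were found over 17 groups of at least 50 cells, 9 of them ependymal. The groups share libraries and depth, and most of the spread is between ependymal and vascular cells, so the coefficients describe the pattern only. Foxj1 ran most like Rsph1, an ependymal marker (Pearson's r = 0.999), with Tekt1 and Cfap126 close by, among 10446 genes. Rfx4 ran most like Ntrk2 and Pou3f2 (both r = 0.998) and Rfx3 most like Dnaic1 (r = 0.998). Over the 9 ependymal groups alone and 8440 genes, Myb ran most like Tekt3 (r = 0.986), Gnal and Six4, and Foxj1 most like Dnaic2 (r = 0.962).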

How the data were processed

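Tables of UMI counts per gene and cell barcode, 1 for each library, were used as the authors deposited them, raw and without normalisation. Per the labels, cells were captured with the Chromium Single Cell kit that reads transcript ends, and the submitters' processing notes name Cell Ranger 3.0.2, STAR 2.5.1b, the mm10 build, R 3.6.0 and Seurat 3. Genes listed in 1 table only were given 0 in the other. All 30236 cells were kept. The study's filter of at least 50 detected genes and at most 10% mitochondrial genes among those detected left all of them. Totals were 233318692 UMIs in the non-traced and 46530507 in the traced library, with 1011 to 70509 and 1013 to 41258 UMIs per cell. Doublets were left in: Scrublet (scanpy 1.11.5) marked 8.54% of the non-traced cells (2170 of 25411, where 20.3% would be expected) and 0 of the 4825 traced ones (3.86% expected), so that it did not work in the traced library.

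Both libraries were clustered together in Seurat 5.3.0 (R 4.3.3) on 2000 features, 20 components and resolution 0.8, with the 9 genes, the regulator list and the reporter rows left out of the features. This gave 18 clusters, and ependymal-like cells were clustered again into 12. The study integrated the libraries, and here integration was an alternative, because an earlier analysis of these files found that it placed cells of 1 library in clusters whose markers they lacked. Ependymal-like clusters had at least 8 of 10 ependymal markers, and fewer than 7 of 10 endothelial ones, in over 50% of cells. Droplets with both sets were kept apart. Classes were rebuilt, and their names may be why a value departs from the study's. Sub-clusters of 49 non-traced cells with leukocyte and endothelial genes and of 49 traced cells with few UMIs stayed unnamed.

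Counts were summed per class and library and scaled to CPM. Differences were taken as log2(CPM + 1), which understates those of low genes, and genes of at least 5 CPM on either side were counted past 2-fold. Ratio intervals were exact conditional 95% intervals, and a count of 0 was set at 3 counts in the sum of the library for a bound. Shares used cells thinned to 1000 UMIs. Python 3.11.15, numpy 2.4.6 and scipy 1.17.1 were used, and the comparison was tested on simulated data. With 1 library a group there was no test. Deup1 is listed in the tables under its older symbol Ccdc67. The members and lists were chosen with earlier results of these data known. The genes named were the 9 members, of the regulator and cilia lists the 3 that differed most either way, E2f4, E2f5, Gmnn, Deup1 and Ccno whatever their values, and the genes most alike in pattern, up to 5 a member. Plk4 and Mybl2 in the comparisons, and Hydin and Spag6l for the promoter stretches, were named after their values were seen. Protein sequences and the Foxj1 promoter were not used here. Alternatives covered integration, resolution, doublets, endothelial UMIs, the pseudocount, filters on cells and genes, scaling, shared barcodes, sub-clusters with more endothelial than ependymal markers among their 10 leading genes, and weights of the sub-clusters.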

Additional observations from a re-analysis of the deposited data

How the results depend on the processing

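No paired analysis was possible because each group was 1 library, and for the same reason no replicate could be left out. In the comparison of traced with non-traced ependymal-like cells, the study's integration with whole clusters as classes (2111 non-traced cells) gave differences on the log2(CPM + 1) scale, traced minus non-traced, of 0.47 for Foxj1, 0.17 for Rfx1, 0.56 for Rfx2, 0.60 for Rfx3, 0.45 for Rfx4, 0.68 for Trp73 and 1.14 for Myb. It put 1 member, 1 regulator and 10 cilia genes past 2-fold higher and 1 regulator lower. Shares over all genes are not given for the alternatives of this section, so nothing is read from such counts. Cells with no endothelial marker UMI (122 non-traced) gave 0.058 for Foxj1, 0.27 for Rfx1, 0.22 for Rfx3, -1.33 for Gmnc, 1.34 for Trp73 and 0.95 for Myb, with 1 member, 1 regulator and 1 cilia gene higher and 1 member lower. A pseudocount of 0.1 gave 0.46 for Mcidas. The stricter filter on cells (at least 1000 genes and at most 5% mitochondrial UMIs) gave -0.15 for Foxj1 and 1 regulator lower. Leaving out the non-traced cluster led by vascular genes, chosen after the data were seen, gave 0.86 for Myb and 1 regulator lower. Weighting the non-traced sub-clusters as in the traced library, chosen after the data were seen, gave -0.18 for Foxj1, -0.17 for Trp73 and 0.049 for Myb.

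Between ependymal-like and endothelial-like cells, the study's integration with whole clusters as classes gave 1 regulator lower, where the main values had 2, and a minimum of 20 CPM left 2 regulators higher. In the cycling comparison, taking cells with UMIs of 2 cycling markers gave 3 regulators higher and 0 lower, a minimum of 20 CPM gave 0 regulators lower, and no filter on low values put 1 member, Mcidas, higher. The causes were not tested. Counting depth limits Mcidas and Gmnc everywhere and every member in the 20 non-traced cycling cells.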
